A study of Arabidopsis thaliana with 4 samples.

Results

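Retained introns were examined in the Arabidopsis thaliana genes that keep many of them. The deposited table of splicing events lists 13845 retained introns in 7931 genes, and an intron was included when its gene has 5 or more listed retained introns and when it is the second or a later intron of that gene. This gave 1552 introns in 296 genes, with 4 to 11 introns in a gene and a median of 5. Messenger RNA came from 4-day-old etiolated seedlings of the wild-type accession Col-0, grown at 22 °C in the dark and then either given 4 h of white light or kept dark. The question put to these introns was whether those of one gene move together when the seedlings are moved into light. The 4 groups are polysomal mRNA from light, polysomal mRNA from dark, total mRNA from light and total mRNA from dark, with 1 library each, so none of the differences could be checked against replicates. The polysomal samples were extracted with phenol and chloroform and the total ones with the Pine Tree protocol, so fraction and extraction differ together; mRNA was then purified with an Oligotex kit. Each library is a bulk seedling sample, in which fewer cells of a type and less RNA per cell cannot be told apart.

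Introns are removed from a transcript by the spliceosome, which reads a donor site at the start of the intron and an acceptor site at its end. A transcript that keeps an intron often carries an early stop codon and can be held in the nucleus, degraded or, in some cases, translated. Intron retention is the most common form of alternative splicing in plants, and light is known to change splicing in seedlings that leave the dark.

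The value of an intron is the percent of reads that show it retained, with retained reads set against spliced reads. In the deposited percents the part that is not retained reads was even for all 13845 retained introns in both total libraries, so each spliced read was taken to weigh 2 in the percent and to count once as a read. No retained intron is listed with 0 retained or 0 spliced reads, so a listed 1 may stand for 0. The numbers below are retained and spliced reads, and percents carry exact 95% binomial intervals (Clopper-Pearson, on the reads and put on the scale of the percent) that cover counting error only. The reads behind a percent numbered 72 in light and 49 in dark at the median. The median percent retained was 14.3% in light and 14.6% in dark. An intron was called when its percent differed at least 1.5-fold and Fisher's exact test gave an adjusted p under 0.05 (Benjamini-Hochberg over all 21842 tested events). This test compares 2 libraries and not the conditions.

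The introns shown here hold the largest called change of the genes with the highest and lowest medians, and the largest called rise and fall of 4 genes called both ways, so that the splice sites behind the results can be read. They are RefSeq sequences of the TAIR10.1 reference, printed 5′ to 3′ on the strand of the gene, and the capitals mark the first 6 bases, which hold the donor site, and the last 3 bases, which hold the acceptor site. Intron numbers were placed on the same-named gene models of the reference. For EMB3144 and AKRP no other splice event of the model allowed a check of that numbering.
EMB3144 intron 15, chr5:25817535-25817625, minus strand: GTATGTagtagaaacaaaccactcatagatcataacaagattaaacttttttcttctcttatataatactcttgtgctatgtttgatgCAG
AKRP intron 6, chr5:26417563-26417635, minus strand: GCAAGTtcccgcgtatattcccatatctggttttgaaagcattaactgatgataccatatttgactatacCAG
DAR6 intron 3, chr5:26590168-26590260, plus strand: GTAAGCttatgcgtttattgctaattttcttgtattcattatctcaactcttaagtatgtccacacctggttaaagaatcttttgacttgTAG
AT5G47900 intron 6, chr5:19393337-19393411, plus strand: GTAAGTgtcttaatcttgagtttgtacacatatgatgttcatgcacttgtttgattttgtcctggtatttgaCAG
APRR2 intron 9, chr4:10004099-10004207, minus strand: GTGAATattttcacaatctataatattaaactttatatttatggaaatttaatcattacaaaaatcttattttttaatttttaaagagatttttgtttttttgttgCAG
AT1G30755 intron 7, chr1:10907151-10907239, minus strand: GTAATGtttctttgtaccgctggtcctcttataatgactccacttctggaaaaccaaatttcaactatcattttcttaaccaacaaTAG
AT3G61080 intron 4, chr3:22607907-22607982, plus strand: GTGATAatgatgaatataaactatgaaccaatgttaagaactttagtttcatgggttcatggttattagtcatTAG
AT5G63080 intron 7, chr5:25300799-25300892, minus strand: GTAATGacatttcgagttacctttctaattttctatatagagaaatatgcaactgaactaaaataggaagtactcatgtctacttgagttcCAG
AT1G76520 intron 2, chr1:28715522-28715628, plus strand: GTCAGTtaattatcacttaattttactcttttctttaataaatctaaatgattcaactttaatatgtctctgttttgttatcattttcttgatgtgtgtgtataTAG
AT1G76520 intron 6, chr1:28716360-28716432, plus strand: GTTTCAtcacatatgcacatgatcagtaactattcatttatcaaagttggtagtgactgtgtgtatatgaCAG
MEE44 intron 2, chr4:23200-23273, plus strand: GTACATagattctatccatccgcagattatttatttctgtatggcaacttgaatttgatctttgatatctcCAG
MEE44 intron 16, chr4:28282-28372, plus strand: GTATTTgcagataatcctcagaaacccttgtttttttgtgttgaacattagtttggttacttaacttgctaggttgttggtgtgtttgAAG
UVH1 intron 4, chr5:16475122-16475234, minus strand: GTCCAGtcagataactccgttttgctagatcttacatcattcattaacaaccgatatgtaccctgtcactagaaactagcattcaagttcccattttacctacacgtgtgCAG
UVH1 intron 5, chr5:16474122-16474383, minus strand: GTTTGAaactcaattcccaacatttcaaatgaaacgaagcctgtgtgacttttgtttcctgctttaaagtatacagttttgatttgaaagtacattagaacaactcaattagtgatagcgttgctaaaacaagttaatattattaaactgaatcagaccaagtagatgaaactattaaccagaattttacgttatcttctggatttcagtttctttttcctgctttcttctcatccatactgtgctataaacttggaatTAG
AT1G19690 intron 5, chr1:6808633-6808701, minus strand: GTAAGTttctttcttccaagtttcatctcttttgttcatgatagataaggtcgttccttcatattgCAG
AT1G19690 intron 7, chr1:6808193-6808277, minus strand: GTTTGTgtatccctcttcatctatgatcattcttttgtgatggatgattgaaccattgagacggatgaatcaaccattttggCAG
All of these begin with GT except intron 6 of AKRP, which begins with GC, a rarer donor that plants also use. On the reference no other gene overlaps EMB3144, AKRP, AT5G47900, APRR2, AT5G63080, AT1G76520 or MEE44. Another gene overlaps AT1G30755, AT3G61080, DAR6, UVH1 and AT1G19690, and also ATLIG4, AT4G02120, WRKY19, BGAL12, AT3G16230, AT2G03140, AT2G20950 and AT3G10820, which are described further on, and reads from the overlap cannot be told apart without strand.

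Of the 1552 introns 67 were called higher and 77 lower in light than in dark. These are 4.32% and 4.96% (9.28% either way), beside 3.48% and 4.53% of all 21842 tested events (8.01%), and beside 4.4% and 4.91% of all retained introns (9.31%), so the share of introns that moved lies near the background. Introns numbered 2 or more in genes with 1 to 4 listed retained introns were called in 4.27% and 4.78% of cases (9.05%). The 156 first introns of the same 296 genes were called in 4.49% and 6.41% (10.9%). The log2 ratio of light over dark ran from -5.42 to 4.86 with a median of 0.02. In 202 of the 296 genes no intron was called, in 61 genes 1 was called, and in 33 genes 2 or more. Among those 33 genes the called introns went one way in 25, all lower in 13 and all higher in 12, and both ways in 8. With at least 20 reads behind each percent, 10 genes were all lower and 12 all higher. In genes with 2 to 4 listed retained introns, 40 of 50 such genes went one way and 10 both ways. Of the 40, 30 were all lower and 10 all higher (26 and 9 with at least 20 reads), a less even split.

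EMB3144 (AT5G64580, chromosome 5, 25816918 to 25821567, minus strand) is named after the embryo-defective phenotype of its mutants and encodes an AAA-type ATPase. It had the lowest gene median, and 6 of its 8 introns were called lower in light, among them the 5 next-door introns 9 to 13, the longest such run. Intron 9 had 9 retained and 252 spliced reads in light (1.75%, interval 0.801 to 3.33), against 18 and 45 in dark (16.7%, 9.83 to 26.1). Intron 10 had 12 and 287 in light (2.05%, 1.06 to 3.58), against 24 and 48 in dark (20%, 12.8 to 29.4). Intron 11 had 20 and 244 in light (3.94%, 2.4 to 6.08), against 23 and 36 in dark (24.2%, 15.3 to 35.7). The light and dark intervals of these introns lie apart. Intron 12 stood at 1.45% in light and 10.3% in dark, and intron 13 at 1.59% in light and 12.2% in dark. Intron 15, the one printed above, had 3 retained and 265 spliced reads in light (0.563%) and 14 and 75 in dark (8.54%), a log2 ratio of -3.92 (Fisher's exact test, adjusted p = 4.35e-05). Introns 6 and 14 were not called, at 3.77% and 5% in light and 6.67% and 7.59% in dark. The retained reads of introns 9 to 13 were fewer in light while the spliced reads were more numerous, and the gene itself stood at 23.1 RPKM (reads scaled by gene length and library depth) in light and 7.02 RPKM in dark. The 8 introns of EMB3144 differed in the size of their shift beyond counting error by Cochran's Q over log odds ratios. In polysomal mRNA the percents of introns 9 to 13 were lower in light too: intron 9 stood at 6.02% in light and 49.3% in dark, intron 11 at 3.63% in light and 39.4% in dark, and intron 13 at 0.277% in light and 6.29% in dark.

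AKRP (AT5G66055, chromosome 5, 26417156 to 26419363, minus strand), which encodes an ankyrin repeat protein of plastids needed in the embryo, had 3 of 5 introns called lower. Intron 2 had 6 retained and 105 spliced reads in light (2.78%, 1.01 to 6.04), against 52 and 83 in dark (23.9%, 17.8 to 31). Intron 4 had 10 and 175 in light (2.78%), against 40 and 142 in dark (12.3%). Intron 6, with the GC donor, had 2 and 201 in light (0.495%, 0.0598 to 1.79), against 33 and 163 in dark (9.19%, 6.32 to 12.9). These 3 alternate with introns 3 and 5, which lie between them and were not called, at 16.4% and 17.1% in light and 21.2% and 26.7% in dark. Every intron of AKRP had a lower percent in light, but the size of the difference varied beyond counting error by Cochran's Q. The gene's own level was nearly the same, at 19 RPKM in light and 20.8 RPKM in dark.

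Other genes with a low median had fewer called introns. AT5G47900, annotated as similar to heparan-alpha-glucosaminide N-acetyltransferase, had 2 of 5 called lower: intron 6 stood at 1.69% in light and 14.6% in dark, and intron 7 at 10.9% in light and 43.5% in dark. Its intron 11 lay on the other side without being called, at 5.06% in light and 1.08% in dark. DAR6 (AT5G66620), a DA1-related protein, had 1 of 5 called, intron 3 at 0.69% in light and 10% in dark. SWEETIE (AT1G67140), a HEAT repeat protein, and AT2G25730, annotated with a FYVE zinc finger, had none called although their medians were -1.98 and -1.35. Each intron of SWEETIE rests on 1 to 11 retained reads in either library, and AT2G25730 has 1 deeply read intron, number 35, which hardly moved, at 57.2% in light and 52.8% in dark.

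AT4G26600, annotated as a methyltransferase, was chosen after its values were seen, because 4 of its 5 introns moved one way. AGD15 (AT3G17660), an ARF-GAP domain protein, holds one of the largest called falls. In AT4G26600, introns 11, 12, 14 and 15 were called lower and intron 13 was not. Intron 14 had 35 retained and 95 spliced reads in light (15.6%, 10.8 to 21.5), against 37 and 27 in dark (40.7%, 28.9 to 53.9). Intron 12 stood at 33.3% in light and 64.7% in dark, and intron 13, next to both, at 27.3% in light and 42.9% in dark. A difference between the shifts of its 5 introns was not detectable beyond counting error by Cochran's Q. Of its 4 introns with polysomal percents, 1 was at least 1.5-fold lower in light and none higher. In AGD15 introns 3, 6 and 7 were called lower, with intron 3 at 1 retained and 33 spliced reads in light (1.49%) and 6 and 7 in dark (30%), a small number of reads in dark. In polysomal mRNA intron 6 of AGD15 stood at 27.3% in light and 33.3% in dark, and intron 4 at 33.3% in both.

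On the other side, APRR2 (AT4G18020, chromosome 4, 10002846 to 10007626, minus strand), a response regulator related to the pseudo-response regulators of the clock, had 3 of 5 introns called higher. Intron 9 had 41 retained and 52 spliced reads in light (28.3%, 20.3 to 37.7), against 1 and 51 in dark (0.971%, 0.0243 to 5.4), a log2 ratio of 4.86 and the largest called rise of all 1552 introns (Fisher's exact test, adjusted p = 8.2e-07). Intron 10 had 50 and 48 in light (34.2%, 25.6 to 44.2), against 14 and 58 in dark (10.8%, 5.85 to 18). Intron 7 had 53 and 217 in light (10.9%), against 7 and 109 in dark (3.11%). Intron 8 lay with them, at 13.1% in light and 3.57% in dark, without passing the test. Intron 5 lay on the other side, at 1.92% in light and 6.08% in dark, and was not called either. Intron 10 is the only one with polysomal percents, 4.17% in light and 6.12% in dark, which is lower in light by less than 1.5-fold.

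AT1G30755, annotated as a putative elongation factor G with a DUF668 domain, had all 6 introns higher in light, of which introns 7 and 11 were called. Intron 7 had 9 retained and 20 spliced reads in light (18.4%, 8.27 to 34.1), against 1 and 37 in dark (1.33%, 0.0333 to 7.42). Intron 11 had 31 and 22 in light (41.3%), against 12 and 42 in dark (12.5%). The 6 log2 ratios ran from 0.91 to 3.78, and no difference between them was detectable beyond counting error by Cochran's Q. In polysomal mRNA 3 of the 6 introns of AT1G30755 were at least 1.5-fold higher in light. There intron 6 was lower, at 25.9% in light and 68.4% in dark, and the called intron 11 hardly moved, at 22.2% in light and 21.7% in dark. AT3G61080, annotated as a protein kinase, had all 5 introns higher with 1 called, intron 4 at 32.3% in light and 6.67% in dark. AT5G63080, annotated as an oxygenase, had all 4 higher with 1 called, intron 7 at 16.7% in light and 2.86% in dark. ATLIG4 (AT5G57160), the DNA ligase of non-homologous end joining, had all 5 higher and none called, with 1 to 11 retained reads each in either library. AT2G41020, a WW domain protein, had the highest gene median at 1.92, but only 3 of 5 introns were higher and none was called.

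AT1G79950, annotated as a RAD3-like helicase and overlapped by another gene, holds one of the largest called rises, and AT5G22920, a RING zinc finger protein, was chosen after its values were seen. In AT1G79950 introns 17, 18 and 19 were called higher. Intron 17 had 16 retained and 58 spliced reads in light (12.1%, 6.89 to 19.6), against 1 and 82 in dark (0.606%, 0.0153 to 3.38). Intron 18 had 43 and 45 in light (32.3%) and 14 and 64 in dark (9.86%), and intron 19 had 50 and 32 in light (43.9%) and 23 and 64 in dark (15.2%). Intron 15 of the same gene stood at 8.16% in light and 12.6% in dark and was not called. AT5G22920 is the most deeply read of these, with 1480 to 2354 spliced reads for an intron, and shows small differences with narrow intervals. Its intron 7 stood at 6.62% in light (5.87 to 7.43) and 2.97% in dark (2.44 to 3.58), and its introns 8 and 9 at 6.62% and 5.78% in light and 3.84% and 3.11% in dark. Its introns 10 and 11 were higher in light by less than 1.5-fold. The gene's level was 215 RPKM in both libraries.

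**Figure D1:**
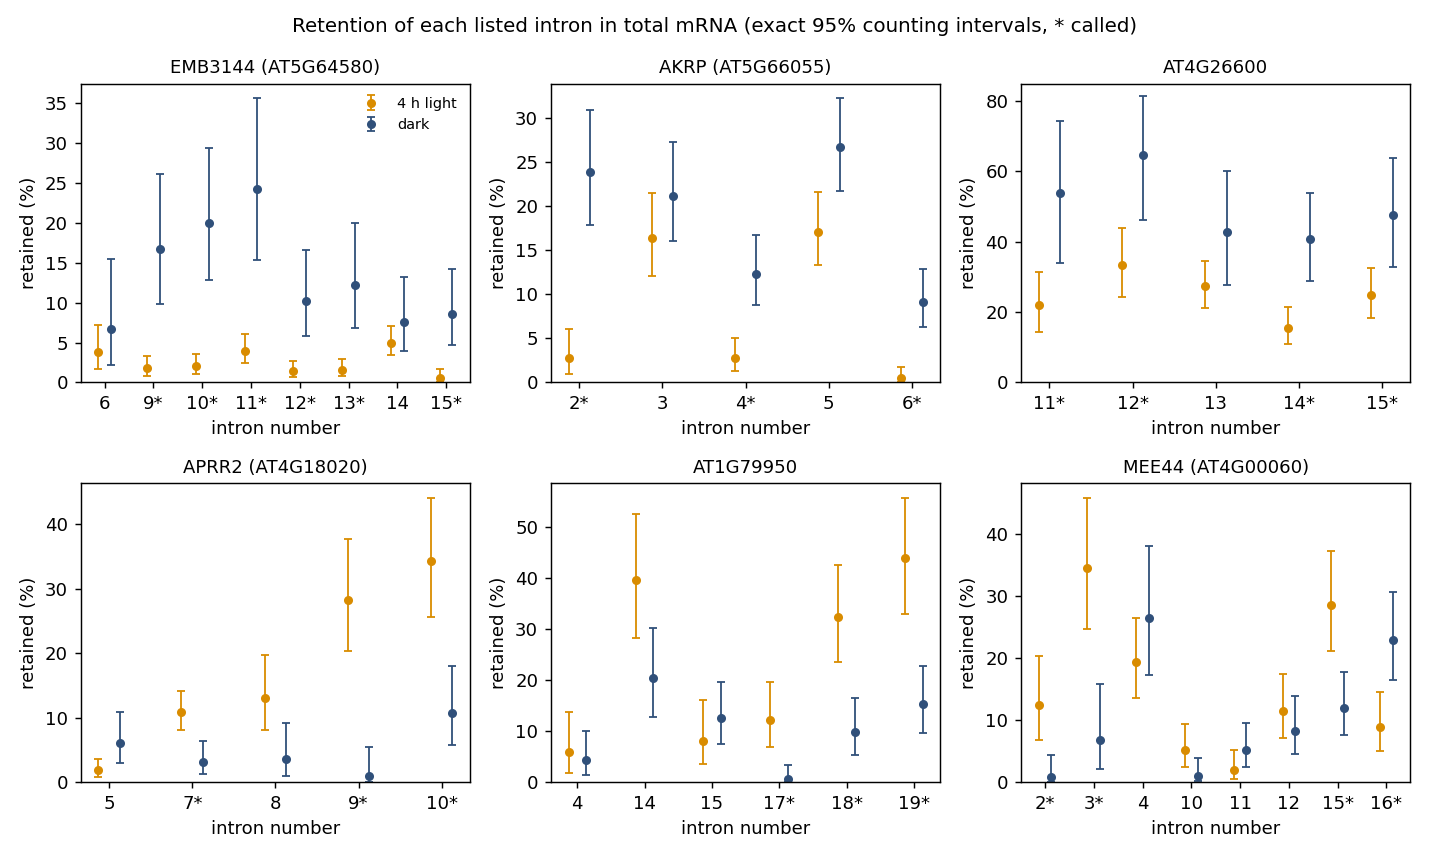
Percent retained (vertical axis) of every included intron of 6 genes in total mRNA, by intron number, with 4 h light in orange left of dark in blue; bars are exact 95% counting intervals and an asterisk marks a called intron. In EMB3144 the 6 called introns lie between 0.563% and 3.94% in light and between 8.54% and 24.2% in dark, while in MEE44 introns 2, 3 and 15 are higher and intron 16 is lower in light.

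In 8 genes called introns went both ways. In AT1G76520, an auxin efflux carrier family protein (chromosome 1, 28714765 to 28717910, plus strand), introns 2 and 8 were called lower and intron 6 higher. Intron 2 had 6 retained and 212 spliced reads in light (1.4%, 0.511 to 3.04), against 16 and 79 in dark (9.2%, 5.23 to 14.9). Intron 6 had 26 and 194 in light (6.28%, 4.09 to 9.19), against 2 and 118 in dark (0.84%, 0.101 to 3.03). Intron 8 had 26 and 280 in light (4.44%), against 30 and 87 in dark (14.7%). The light and dark intervals of each called intron lie apart, and the shifts differ beyond counting error by Cochran's Q. The gene was named for opposite calls on the same reads, so neither is separate support.

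MEE44 (AT4G00060), a nucleotidyltransferase family protein named after a maternal effect on the embryo, had introns 2, 3 and 15 called higher and intron 16 lower. Intron 2 had 15 retained and 53 spliced reads in light (12.4%, 6.9 to 20.3), against 1 and 64 in dark (0.775%, 0.0195 to 4.32). Intron 15 had 48 and 60 in light (28.6%, 21.1 to 37.3), against 24 and 88 in dark (12%, 7.66 to 17.8). Its neighbour, intron 16, had 16 and 81 in light (8.99%, 5.12 to 14.5), against 41 and 69 in dark (22.9%, 16.4 to 30.7). These next-door introns of MEE44 were called in opposite directions. UVH1 (AT5G41150), an endonuclease of DNA repair, had the same arrangement: intron 4 stood at 17.5% in light and 1.54% in dark, and intron 5 at 4.24% in light and 16.7% in dark. In AT1G19690, a Rossmann-fold protein, intron 5 had 13 retained and 9 spliced reads in light (41.9%), against 1 and 16 in dark (3.03%). Intron 7 of AT1G19690 had 8 and 26 in light (13.3%), against 33 and 18 in dark (47.8%). Its intron 5 has under 20 reads in dark. With at least 20 reads behind each percent, 7 genes went both ways. The other 4 genes, seen to move both ways, are BCA6 (a beta carbonic anhydrase), TRFL8 (a TRF-like protein), AT3G16230 (annotated as LigT-like) and STY17 (a protein kinase). In BCA6 the deep reads show opposite shifts of small size, with intron 7 at 5.97% in light (4.97 to 7.11) and 3.13% in dark (2.57 to 3.78), and intron 9 at 5.65% in light (4.7 to 6.73) and 8.81% in dark (7.71 to 10).

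Over all 296 genes, 43 had introns that differed in their light shift beyond counting error (Cochran's Q, adjusted over all genes with 2 or more listed retained introns numbered 2 or more). They include all 8 genes called both ways and 10 of the 25 genes called one way. The 8 genes were picked by opposite calls on the same reads, so their place among the 43 adds no separate support. No count from genes with fewer listed retained introns was set beside the 43. The 43 can therefore not be read as a trait of genes that keep many introns. Within 1 gene the log2 ratios spanned 2.25 at the median. All included introns of a gene were higher in light in 39 genes and lower in 23 genes, and 234 genes were mixed. These counts depend on the number of introns in a gene. Of 93 genes with 4 included introns 17 were all higher and 7 all lower, and of 61 genes with 6 introns 2 and 5. No share for introns that move independently was set beside them, so they do not answer whether introns of a gene move together.

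Among the 8 genes named for the most included introns, with ties at 8 introns taken by identifier, 2 genes held called introns and gene medians of the log2 ratio ran from -0.84 to 1.08. EMB3144 and MEE44, described above, also have 8 included introns, with 6 and 4 called. AT4G02120, a CTP synthase, which makes CTP from UTP, had 11 introns, and 9 of them had a higher percent in light. Introns 9 and 12 were called, at 25.8% and 47.4% in light and 11.9% and 22.6% in dark. BGAL12 (AT4G26140), a beta-galactosidase, had 8 of 9 introns higher in light and none called, with log2 ratios from -0.27 to 1.10. AT5G27300, a pentatricopeptide repeat protein, had all 9 higher and none called, and 5 of them had a single spliced read in both libraries. TAF2 (AT1G73960), a subunit of the TFIID complex, had 1 of 8 called, intron 21 at 12.9% in light and 3.49% in dark. WRKY19 (9 introns), AT4G38120 (10 introns, ARM repeat), ABCC12 (8 introns, an ABC transporter) and AT1G73875 (8 introns) had none called. The log2 ratios of AT4G38120 ran from -3.45 to 1.96, around a median of -0.84, and the median of WRKY19 was 1.08.

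**Figure D2:**
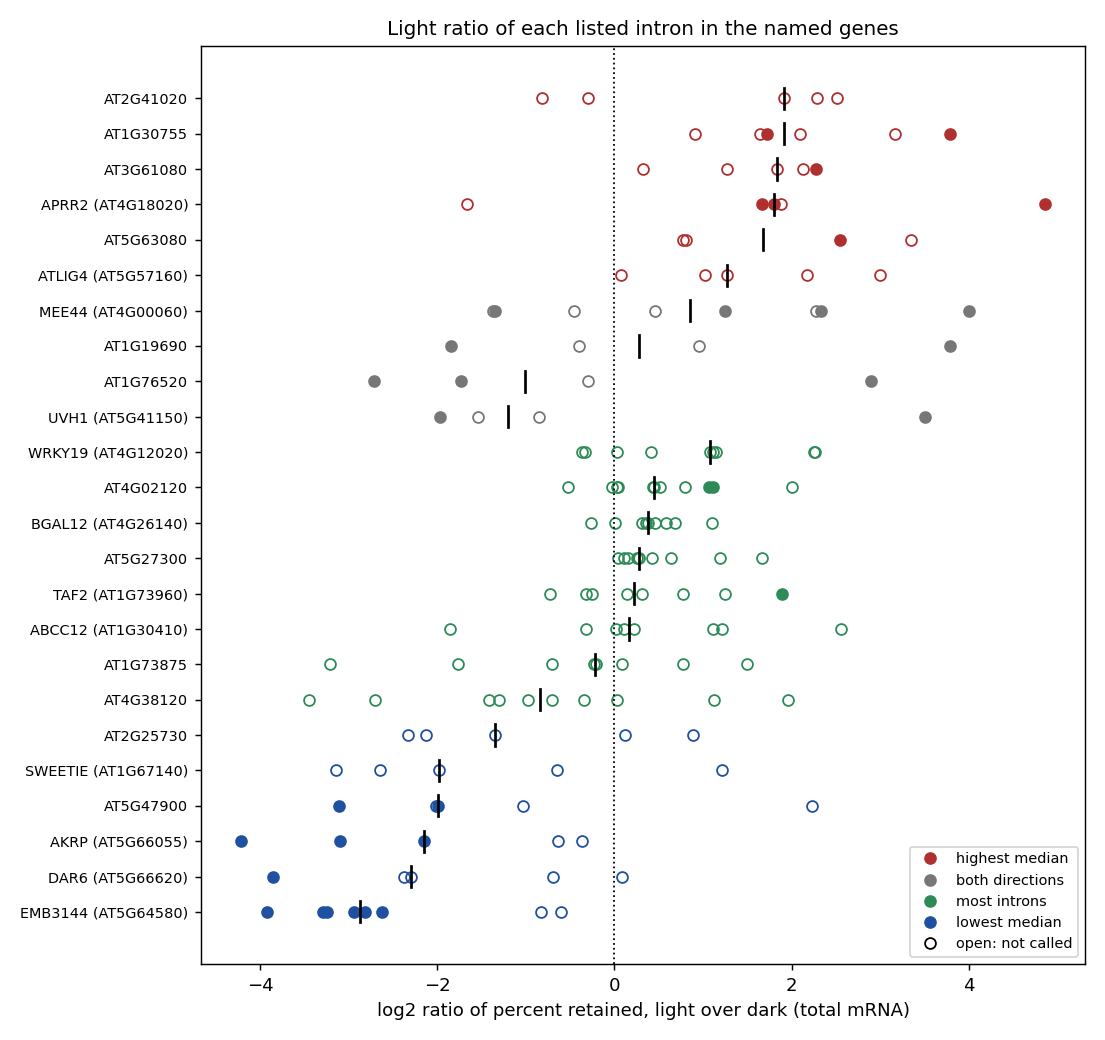
Log2 ratio of percent retained, light over dark (horizontal axis), of every included intron in 24 genes named by rule, 1 row per gene and 1 circle per intron in total mRNA; filled circles are called introns, open circles are not, and the black tick is the gene's median. Introns of EMB3144 all lie at or below -0.60, those of AT1G30755 all above 0.9, and those of MEE44 and AT1G76520 lie on both sides of 0.

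To describe how far introns of a gene agree, each was placed above or below the median log2 ratio of all 1552. Of 3522 pairs within a gene, 59.4% lay on the same side, beside 49.9% of pairs from different genes. The same share was 55.6% of 4247 pairs in genes with 2 to 4 listed retained introns. Agreement was highest between neighbours. Introns next to each other lay on the same side in 66.3% of 798 pairs. The share was 62.7% at 2 introns apart, 57.7% at 3, 56.1% at 4 and 54.9% at 5 or more, where 1159 pairs were counted. The pairs share transcripts and libraries and are not independent, so these shares have no test.

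Where both introns of a pair were called, 21 of 23 pairs went in one direction between neighbours, 14 of 17 at 2 introns apart, 12 of 13 at 3, 8 of 10 at 4 and 7 of 13 at 5 or more. These pairs come from the 33 genes with 2 or more called introns. A gene with many called introns, such as EMB3144 with 6, gives many of the pairs. The gradient over all pairs also stood in the 217 genes that have pairs at both ends, at 65.2% and 54.1%. Without introns of a single retained read it was 66.4% between neighbours and 52.7% at 5 or more apart. In genes with 2 to 4 listed retained introns the share was 61.4% between neighbours and 53.3% at 2 introns apart. It was 51.1% at 3, 54.6% at 4 and 50.7% at 5 or more, without a steady fall after neighbours. Included introns of genes that overlap no other gene gave 65.1% between neighbours, 51.8% at 4 apart and 55.1% at 5 or more. Whether reads that cross a short exon counted for both of its introns was not tested. On models with checked numbering, and with introns of a single spliced read left out, neighbours lay on the same side in 63.6% of 195 pairs with an exon under 100 bases between them, in 64.1% of 103 pairs with an exon of 100 to under 200 bases and in 70.7% of 41 pairs with an exon of 200 bases or more.

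**Figure D3:**
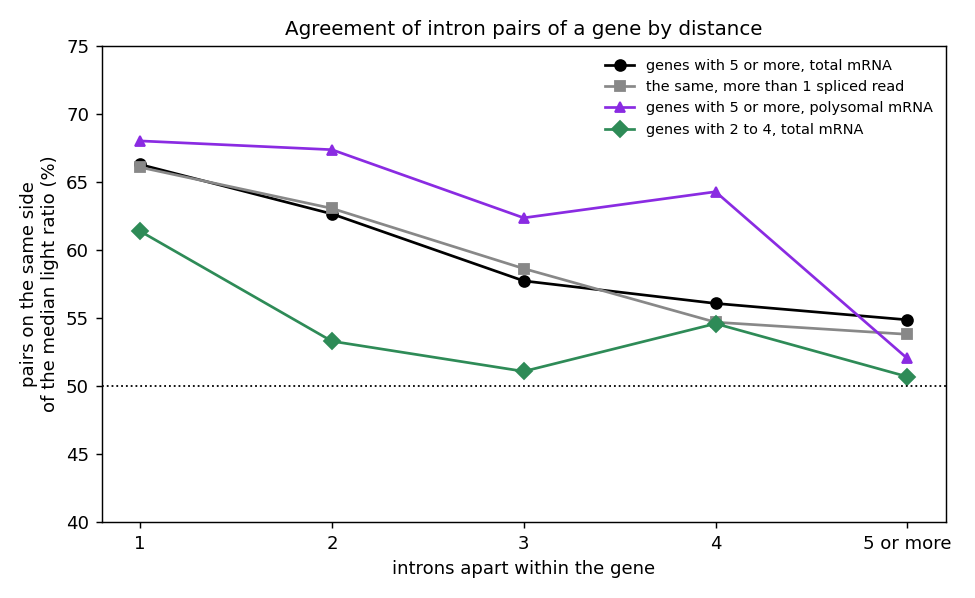
Share of intron pairs of a gene on the same side of the median light ratio (vertical axis, percent, starting at 40) by the number of introns apart (horizontal axis), for the included introns in total and polysomal mRNA and for genes with 2 to 4 listed retained introns; the dotted line marks 50%. In total mRNA the share is 66.3% between neighbours and 54.9% at 5 or more apart.

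The gene accounted for 17.7% of the variance of the log2 ratio (one-way variance components), beside 16.2% in genes with 2 to 4 listed retained introns. This share depended on the measure and the set: it was 27% on log odds ratios, 29.3% in genes with 8 or more listed retained introns, and 41.6% for the 453 introns that have polysomal percents and a partner in their gene (20.7% in polysomal mRNA). The level of retention itself showed a similar order: neighbours lay on the same side of the median percent in 67.8% of pairs in light and 69.4% in dark, and introns 5 or more apart in 56.1% in light and 55% in dark. The light shift of a gene's introns and that of its level were nearly unrelated, with a Spearman rho of 0.04 across 296 genes between the median log2 ratio of the introns and the log2 ratio of gene RPKM + 1. The first introns of the same genes, 156 in number, lay on the same side of 0 as the median of the later introns in 94 cases.

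In 262 introns (16.9%) of 107 genes a single spliced read was listed in light and in dark. Their percents run down to 33.3%, where 1 retained read stands beside it, so the set holds thinly read introns as well as introns with many retained reads. The percent of such an intron follows its retained reads alone. In 16 genes every included intron was of this kind. One with many retained reads is intron 10 of SPL7 (AT5G18830), the copper-responsive transcription factor, with 454 retained and 1 spliced read in light (99.6%) and 286 and 1 in dark (99.3%), and 99.5% in light and 99.7% in dark among polysomal mRNA. Of the 262, 141 have polysomal percents, and 114 of these stood at 50% or more in both polysomal libraries. Without every intron that has a single spliced read in either library, 1243 remain, of which 66 were called higher and 75 lower, and 59% of same-gene pairs lay on the same side.

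In polysomal mRNA, the mRNA bound to several ribosomes, 547 of the introns in 236 genes have percents, without reads, so their depth is unknown. The percent was at least 1.5-fold higher in light for 94 of them (17.2%) and at least 1.5-fold lower for 190 (34.7%), beside 18.4% and 34.6% of all 4330 retained introns with polysomal percents. In total mRNA the same 547 introns were at least 1.5-fold higher in 19.6% and lower in 16.3%, beside 18.6% and 16.9% of all 4330, so lower percents in light outnumbered higher ones in polysomal mRNA and not in total mRNA, among these introns as among all. The median percent was 23.8% in polysomal light, 29.6% in polysomal dark, 28% in total light and 30.1% in total dark. Polysomal percents were at least 1.5-fold lower than total ones for 239 introns in light (43.7%, beside 40% of all 4330) and for 168 in dark (30.7%, beside 30.1%). They were at least 1.5-fold higher for 70 introns in light (12.8%, beside 12.8%) and for 100 in dark (18.3%, beside 19.7%). Polysomal and total mRNA differ in extraction as well, which cannot be told apart from the fraction.

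The direction in total mRNA was partly shared. Of 33 introns called lower in total mRNA that have polysomal percents, 19 were at least 1.5-fold lower there too, 6 were higher and 8 lay between. Of 23 called higher, 8 were higher there too, 5 were lower and 10 lay between. Among the 491 not called in total mRNA, 166 were at least 1.5-fold lower in polysomal mRNA, 80 were higher and 245 lay between. Across the 547 introns the log2 ratios of the 2 fractions had a Spearman rho of 0.23, as a description. Introns of one gene also agreed in polysomal mRNA: 63.5% of 624 same-gene pairs lay on the same side of the median, at 68% between neighbours and 52% at 5 or more apart. The share was 67% for the same introns in total mRNA, and with introns of a single spliced read left out 59.8% in polysomal and 67.3% in total mRNA, over 336 pairs. With those introns left out, polysomal agreement was 67.6% between neighbours and 42.2% of 64 pairs at 5 or more apart. In total mRNA the same pairs gave 76.6% and 46.9%, so distant introns did not agree in either fraction. In BGAL12 the polysomal percents were lower towards the later introns, with 73.3% in light and 94.1% in dark at intron 8, 36% in light and 27.3% in dark at intron 11, and 6.8% in light and 5.04% in dark at intron 16. Its total percents at these introns were 5.95%, 16.2% and 16.4% in light and 3.7%, 13.1% and 16.3% in dark. In intron 7 of AT1G56500, a haloacid dehalogenase-like protein, the polysomal percent was 99.1% in light and 98.4% in dark, above its total percent of 41.9% in light and 37% in dark. Intron 11 of AT2G03140, annotated as an alpha/beta hydrolase, stood at 98.9% in light and 99% in dark in polysomal mRNA, and at 99.1% in light and 98.9% in dark in total mRNA.

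**Figure D4:**
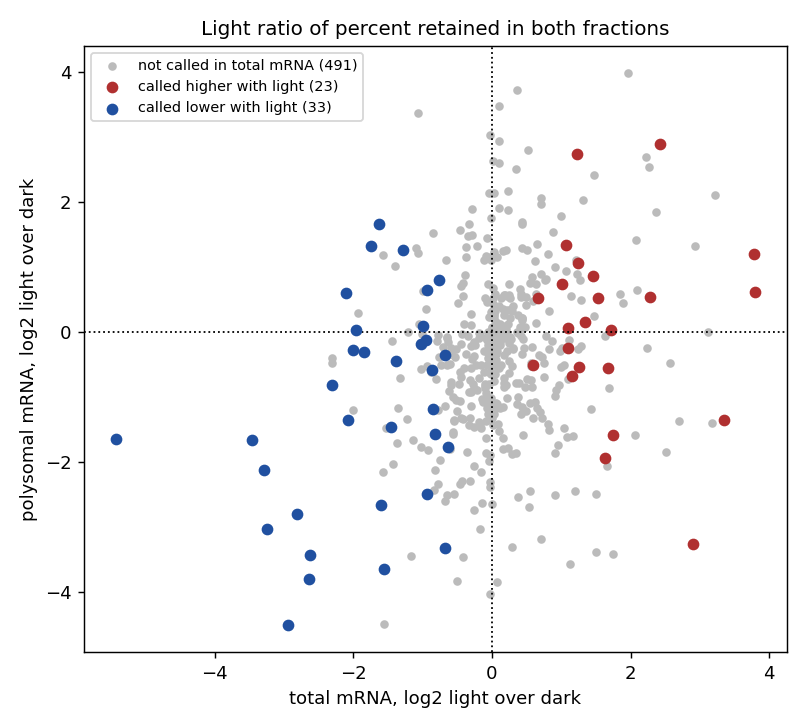
Log2 ratio of percent retained, light over dark, in polysomal mRNA (vertical axis) against total mRNA (horizontal axis) for the 547 introns with both; red marks introns called higher and blue those called lower in total mRNA. Of the 33 blue points 19 are at least 1.5-fold lower in polysomal mRNA as well, and of the 23 red points 8 are at least 1.5-fold higher. Of the 491 grey points, not called in total mRNA, 166 are at least 1.5-fold lower and 80 higher.

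In sequence the introns lay close to the other sets. On the 161 models whose numbering matched the reference at all checked splice sites there were 851 of them, with a median length of 103 bases, beside 99 bases in 1141 introns of the same genes not listed as retained and 110 bases in 3177 retained introns of genes with 1 to 4. The median GC content was 34.1% (33.3% and 34% in the other sets). GT began 97.9% of them and GC 1.76%, beside 1.4% and 1.51% GC in the other sets. The donor GTAAGT, counted at the first 6 bases on the strand of the gene, was held by 7.87%, 8.33% and 7.3%. Most lay within coding sequence (98.5%). The 46 called higher had a median length of 90.5 bases and the acceptor CAG in 73.9%, the 35 called lower had 119 bases and CAG in 48.6%, and the 770 not called had 103.5 bases and CAG in 64.2%, as a description with no test. They stand for 67 introns called higher and 77 called lower, so the lower ones are covered less fully. EMB3144, AKRP, AT4G26600 and AGD15, whose numbering had no check, are left out. Of 15 introns with a GC donor, 1 was called higher and 1 lower.

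The largest called changes lay in genes with 1 called intron as well as in genes with several. PLDP1 (AT3G16785), a phospholipase D, held the largest fall: intron 17 had 1 retained and 166 spliced reads in light (0.3%, 0.00758 to 1.67), against 37 and 125 in dark (12.9%, 9.06 to 17.7), a log2 ratio of -5.42 (Fisher's exact test, adjusted p = 2.09e-09). Its intron 19 was called as well, at 4.61% in light and 19.5% in dark, while intron 18 between them, at 9.39% in light and 14.8% in dark, was not. Intron 7 of PLDP1 lay on the other side without being called, at 7.32% in light and 1.96% in dark. The shifts of the 5 introns of PLDP1 differed beyond counting error by Cochran's Q. In polysomal mRNA intron 17 stood at 1.69% in light and 5.35% in dark. AT5G59770, a PTPLA-like protein, had intron 8 at 3 retained and 153 spliced reads in light (0.971%) and 11 and 25 in dark (18%), while its other 5 introns differed by less than 2-fold and none was called. AT3G10820, a TFIIS family protein, had intron 6 at 1 and 69 in light (0.719%) and 5 and 15 in dark (14.3%). AT2G20950, a PEARLI 4 family protein, had intron 6 at 8 and 47 in light (7.84%) and 1 and 98 in dark (0.508%), the only called intron of 4.

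None of the 85 genes on lists of SR proteins, other splicing regulators, clock genes, photoreceptors and light regulators, chlorophyll synthesis and the Calvin cycle holds an included intron. In 55 of them 87 retained introns are listed, with at most 4 in a gene. Of all 7931 genes with a listed retained intron only 296 hold included introns. An absence among 55 genes lies near that small share and is no trait of these lists.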

How the data were processed

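The authors' deposited event table gives, per the file headers, event reads (estimated counts, whole for every retained intron), percents, a log2 ratio and the p-value of a chi-square test for total mRNA. The header text calls that log2 ratio one of polysomal RPKM, but it equals the log2 ratio of the percents. The deposited polysomal table gives percents without reads, and the deposited gene table gives read counts and RPKM made by the authors. The build is TAIR10, per the submitters' processing notes. Which aligner and counter were used, and whether strand was kept, is not given in the sources used here. The listed reads numbered 91087442 in total light and 64950412 in total dark. Polysomal reads and RPKM and a microarray were not analysed here.

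Dividing event reads by the percent gave the total behind it, which was whole within 0.01 for every retained intron. Its part without event reads was even in all 13845, so it was halved to spliced reads for Fisher's exact test, Cochran's Q (0.5 added to each cell) and all intervals. The test had been planned on the undivided part, which is kept as an alternative. Exon skipping and donor or acceptor events entered the adjustment as they stand, and 607 cryptic exon events were left out. Pairs and variance shares use the log2 ratio of percents. Polysomal percents were joined by gene and intron number, and the total percents held by both tables differed by at most 0.05. Scripts used Python 3.11.15, scipy 1.17.1 and pandas 2.3.3, and were tested on simulated data.

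Intron coordinates come from the same-named RefSeq models of TAIR10.1. Of 343 splice sites in these genes that allowed a check of the numbering, 92.1% matched. Of the 296 models 161 matched at all checked sites, 7 at some and 6 at none. In 9 models a listed intron number exceeds the model, and 113 had no check. Among named genes, AT2G20950 matched at no site, SWEETIE at some, and ABCC12 has a number that exceeds its model. In 107 of the 296 genes another gene overlaps on the reference. The introns, lists and tests were chosen with earlier results of these data known. Genes were named for most included introns (8), highest and lowest median with 20 or more reads (6 each), both directions with the widest range (4), the 5 largest called rises and falls and the 3 highest polysomal percents in light.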

Additional observations from a re-analysis of the deposited data

Results flagged for a closer look

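In 3 introns of the named genes the percent in polysomal mRNA moved at least 1.5-fold with light in the direction opposite to a call in total mRNA. The difference between the fractions was not tested, since the polysomal percents have no reads and each group holds 1 library. Intron 6 of AT1G76520, called higher in total mRNA, stood at 1.01% in polysomal light and 9.76% in polysomal dark, a log2 ratio of -3.27. Intron 8 of AT2G37025 (TRFL8), also called higher, stood at 4.55% in polysomal light and 7.28% in polysomal dark, a log2 ratio of -0.68. Intron 6 of AT4G35780 (STY17), called lower in total mRNA, stood at 12.5% in polysomal light and 5.26% in polysomal dark, a log2 ratio of 1.25.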

How the results depend on the processing

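No paired analysis was possible because each group holds 1 library, and none could be left out. In genes with 8 or more listed retained introns, a smaller set by construction, 9 of 219 introns were called higher and 10 lower. There 3 genes went one way and 1 both ways, the variance share was 29.3%, and 4 of 27 genes differed beyond counting error. In polysomal mRNA the 4 counts there, over 78 introns, were 9 higher, 27 lower, and 25 in light and 20 in dark below total mRNA. The authors' p under 0.01, which is not adjusted, gave 154 higher and 157 lower of the 1552 introns, 56 genes one way and 25 both ways. With the log2 ratio of gene RPKM subtracted, a value shared by all introns of a gene, the same-side share was 66.7% and the variance share 46.1%. At 2-fold, 103 of 547 introns were lower in polysomal than in total mRNA in dark. The following alternatives were added after the data were seen. A log odds ratio gave a variance share of 27%. Genes that overlap no other gene, also a smaller set, gave 44 higher and 56 lower of 980 introns, and 5 genes both ways. With each spliced read counted 2 times, 86 introns were called higher and 99 lower, 34 genes went one way and 10 both ways, and 63 genes differed beyond counting error. Leaving out introns of 1 retained or 1 spliced read was also added then. A minimum of 20 reads, first introns kept and odds ratios for the counts of calls had been planned before. All of these left the counts within 1.5 times. Apart from the odds ratios, they also left the shares within 5 percentage points. The balance of genes with all called introns lower or all higher, 13 and 12, was 10 and 12 with at least 20 reads.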
